A study of Mus musculus with 9 samples.

Results

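The sites described here were accessible-chromatin peaks called in Anp32e null mouse embryonic fibroblasts (MEFs) after siRNA against the histone variant H2A.Z and in no other peak list of the study. They were chosen by merging the peaks of 4 lists on chromosomes 1 to 19, where peaks overlapped or touched, and keeping the merged sites with a peak from the H2A.Z siRNA list alone. The rule kept 17599 of 125387 merged sites, which is 14.0% of all sites and 16.6% of the 105816 H2A.Z siRNA peaks on these chromosomes. Each of these sites held a single peak. Since the calls themselves chose the sites, peak strength and width are given as a description, with no test.

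The study profiled open chromatin with ATAC-seq, a method that relies on the Tn5 transposase to cut and tag accessible DNA, in 9 libraries of primary MEFs below passage 8. The groups were wild type (WT) MEFs with 3 libraries, untransfected Anp32e null MEFs with 3 libraries, Anp32e null MEFs given a non-targeting (NT) siRNA pool with 1 library, and Anp32e null MEFs given an H2A.Z siRNA pool with 2 libraries. Both siRNA groups therefore lacked the chaperone ANP32E and had been exposed to lipofection, and no WT cells with siRNA were analysed here. Each group was represented by 1 peak list, so no difference between lists has a replicate check, and a lack of a call is not a measured absence of signal. Intervals below are 95% Wilson intervals, which cover counting error only, and ranges over the 19 autosomes are given beside the main shares.

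H2A.Z is a variant of histone H2A that is placed in nucleosomes around promoters and enhancers by SWR1-type remodelling complexes, and ANP32E is a chaperone that takes it out again. Open chromatin of fibroblasts away from promoters is known for binding sites of AP-1, the family of FOS and JUN dimers, and of TEAD factors, which act with YAP and TAZ. The sites were examined for their strength, their position, and the sequence under their summits, the point of highest fragment pileup. Of 14 fibroblast marker genes, 13 had a peak within 1 kb of a transcription start site (TSS) in the H2A.Z siRNA, NT siRNA and null lists and 12 in the WT list, and Lum had none in any list. In the H2A.Z siRNA list all 4 epithelial, all 4 endothelial and all 4 neural markers also had one, as did 2 of 4 haematopoietic and 2 of 4 muscle markers, so TSS peaks did not separate cell types.

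The sequences below are windows of 201 bp, with 100 bp on either side of the summit, from the GRCm38 reference (plus strand). They show 4 of the 10 sites of highest fold enrichment, 1 of them without an AP-1 motif, and the site at the Chit1 TSS, which was the third strongest at a protein-coding TSS. Capitals mark the AP-1 motif TGANTCA, where N is any base. The motif is its own reverse complement, so both strands are covered.

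Intron of Armh3, chr19:45988333-45988533: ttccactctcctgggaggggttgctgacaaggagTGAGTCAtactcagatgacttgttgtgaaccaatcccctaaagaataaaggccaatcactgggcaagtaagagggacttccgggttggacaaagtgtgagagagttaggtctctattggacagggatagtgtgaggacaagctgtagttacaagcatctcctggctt
Intron of Igf2bp3, chr6:49130455-49130655: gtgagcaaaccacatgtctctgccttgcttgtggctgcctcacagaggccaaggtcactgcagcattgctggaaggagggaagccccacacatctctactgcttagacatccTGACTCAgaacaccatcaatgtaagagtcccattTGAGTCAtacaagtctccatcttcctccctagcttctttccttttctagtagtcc
Intergenic, near Trarg1, chr11:76677202-76677402: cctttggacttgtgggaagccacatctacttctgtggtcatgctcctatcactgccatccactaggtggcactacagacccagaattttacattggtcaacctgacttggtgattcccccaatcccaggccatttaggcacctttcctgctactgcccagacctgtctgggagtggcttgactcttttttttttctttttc
Intergenic, chr13:31335013-31335213: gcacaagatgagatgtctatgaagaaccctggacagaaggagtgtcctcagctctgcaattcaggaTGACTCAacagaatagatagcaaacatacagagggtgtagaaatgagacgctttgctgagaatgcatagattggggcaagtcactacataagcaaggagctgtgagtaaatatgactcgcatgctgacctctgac
TSS of Chit1, chr1:134111098-134111298: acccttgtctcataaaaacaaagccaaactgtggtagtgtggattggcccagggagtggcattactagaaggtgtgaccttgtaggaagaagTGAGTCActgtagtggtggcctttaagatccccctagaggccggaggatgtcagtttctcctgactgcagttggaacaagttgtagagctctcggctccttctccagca

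The strongest site lay in an intron of Armh3, which encodes an armadillo-like helical protein, at chr19:45988285-45988799. Its summit held 291 fragments and stood 14.21-fold above the local background, at percentile 91.6 of all H2A.Z siRNA peaks. The nearest peak of another list was 8.9 kb away. The second, 278 bp wide at chr6:49130436-49130713 in an intron of Igf2bp3, an RNA-binding protein of fetal tissues, reached 13.82-fold with 259 fragments, and its window carried 2 AP-1 motifs, the nearer 15 bp from the summit. The third, at chr2:128638696-128639033 in an intron of Anapc1, a subunit of the anaphase-promoting complex, reached 13.6-fold with 255 fragments.

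Across the 10 sites of highest fold, fold ran from 11.74 to 14.21, the summit from 224 to 319 fragments and the width from 262 to 738 bp. An AP-1 motif stood in 8 of the 10 windows. By summit, 7 lay in introns and 3 between genes. The nearest peak of another list was 3.0 to 27.0 kb away. Others were at chr11:76677096-76677507, 2.5 kb from the TSS of Trarg1, a regulator of glucose transporter traffic; chr16:11270638-11270972, 16.6 kb from Gspt1, a translation termination factor; chr15:25559775-25560036 in the long non-coding gene Gm36642; chr9:65084315-65084994 in the antisense gene Gm47350; chr6:115227479-115227823 in Syn2, a synaptic vesicle gene, 415 bp from the start of Gm17482; and chr13:31334744-31335284, 221.0 kb from Foxq1, a forkhead gene.

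Most of the sites were far weaker than these. The median fold was 2.55, with an interquartile range of 2.13 to 3.24, against 6.53 for the other H2A.Z siRNA peaks. The median summit held 60 fragments, compared with 201. The median width was 369 bp, with medians of 345 to 391 bp over autosomes, compared with 735 bp. The median site stood at percentile 14.0 of fold within the list, and 565 sites (3.21%) stood above the list's median. At a −log10 q of 5 or more, 76.2% of the sites were kept (75.6 to 76.8%), whereas 94.6% of all H2A.Z siRNA peaks were.

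**Figure D1:**
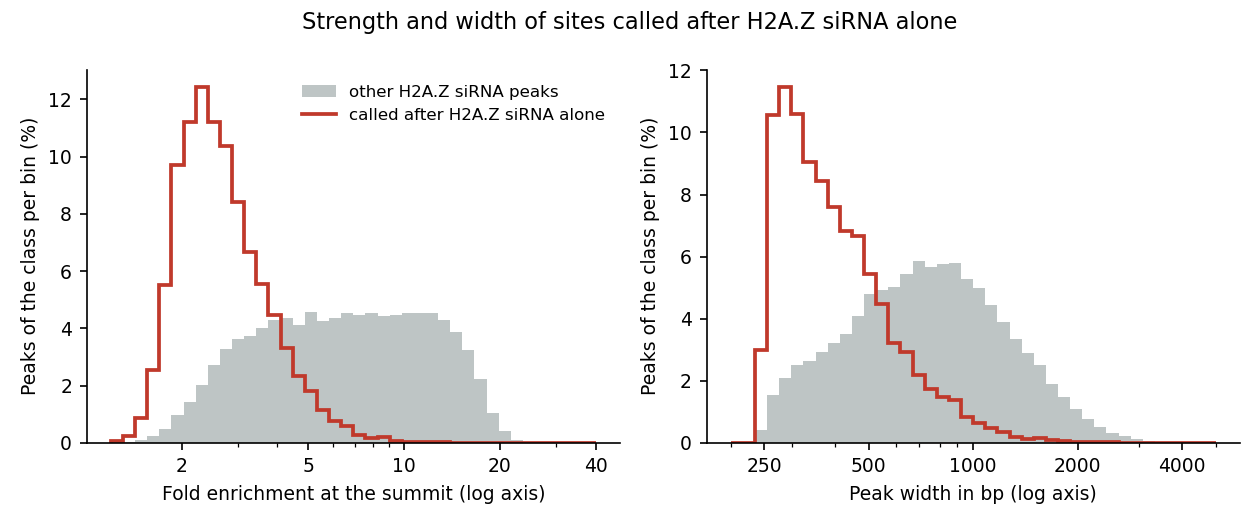
Distribution of fold enrichment at the summit (left, log axis) and of peak width in bp (right, log axis) for the 17599 sites called after H2A.Z siRNA alone (red line) and for the other 88217 H2A.Z siRNA peaks (grey), as the percentage of each class per bin. The sites gather around a median fold of 2.55 and a median width of 369 bp, while the other peaks have medians of 6.53 and 735 bp.

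Sites called in 1 other list alone were weak within their own lists too. Their median percentile of fold was 12.2 for the 2933 sites called after NT siRNA alone, 11.4 for the 3719 of untransfected null alone and 17.3 for the 8635 of WT alone. The H2A.Z siRNA list differed from the others in how many such sites it held rather than in where they ranked: single-list sites made up 48.7% of its lowest quartile by fold, compared with 10.7% for NT siRNA, 14.6% for null and 28.4% for WT. The 11357 sites called in both siRNA lists and in neither untransfected list were stronger, with a median fold of 3.67 in the H2A.Z siRNA list and a median percentile of 32.1.

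The lists differed in depth, by an amount that depends on how depth is measured. The genome-wide background was 17.8 fragments in the H2A.Z siRNA list, 8.85 in WT, 5.12 in null and 3.88 in NT siRNA, so by background H2A.Z siRNA had 4.59 times the depth of NT siRNA. Each peak's fragment count was therefore brought down to the depth of each other list, and its chance of passing that list's lowest p-value was computed. At NT siRNA depth, 58.0% of the sites (10207) were expected to be called, compared with 93.8% of the other H2A.Z siRNA peaks. Null depth gave an expected share of 68.0% and WT depth one of 86.1%. Under this calculation, 1855 H2A.Z siRNA peaks were expected in no other list, and 17599 were found, 9.49 times as many (8.18 to 13.8 over autosomes).

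That ratio depended on how depth was scaled. The calculation takes background as the measure of depth and assumes that enrichment over background was the same in every list, which the lists do not bear out. At the 57522 sites called in all 4 lists, the median ratio of summit fragments to the H2A.Z siRNA list was 0.26 for NT siRNA, 0.185 for null and 0.204 for WT, while the ratios of backgrounds were 0.218, 0.287 and 0.497. By pileups NT siRNA was thus the deepest of these 3 lists, and by background the shallowest. With the ratios from shared sites, the sites expected to be called fell to 36.2% at null depth and 20% at WT depth and rose to 65.3% at NT siRNA depth, and 8018 peaks were expected in no other list. With each list's threshold set at the 5th percentile of its −log10 p, 7679 were expected. The count found was larger than each of these values, but the calculations also start from fragment counts of peaks that had passed a call in the H2A.Z siRNA list, and how far this raised the expected shares was not tested. With the same number of peaks taken from each list by fold, 5469 sites were in the H2A.Z siRNA list alone.

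By strength, the share of H2A.Z siRNA peaks found in no other list fell from 62.7% in the lowest fold decile to 28.2% in the third, 8.97% in the fifth and 1.09% in the seventh. In the third decile, with folds of 2.87 to 3.51, 83.9% of all H2A.Z siRNA peaks were expected in the NT siRNA list and 54.5% were found there, while 93.1% were expected and 42.4% found in null, and 99.8% were expected and 38.8% found in WT. These expected shares use background scaling. Expected shares by decile were not computed with the ratios from shared sites, so no order of the 3 lists is read from them.

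**Figure D2:**
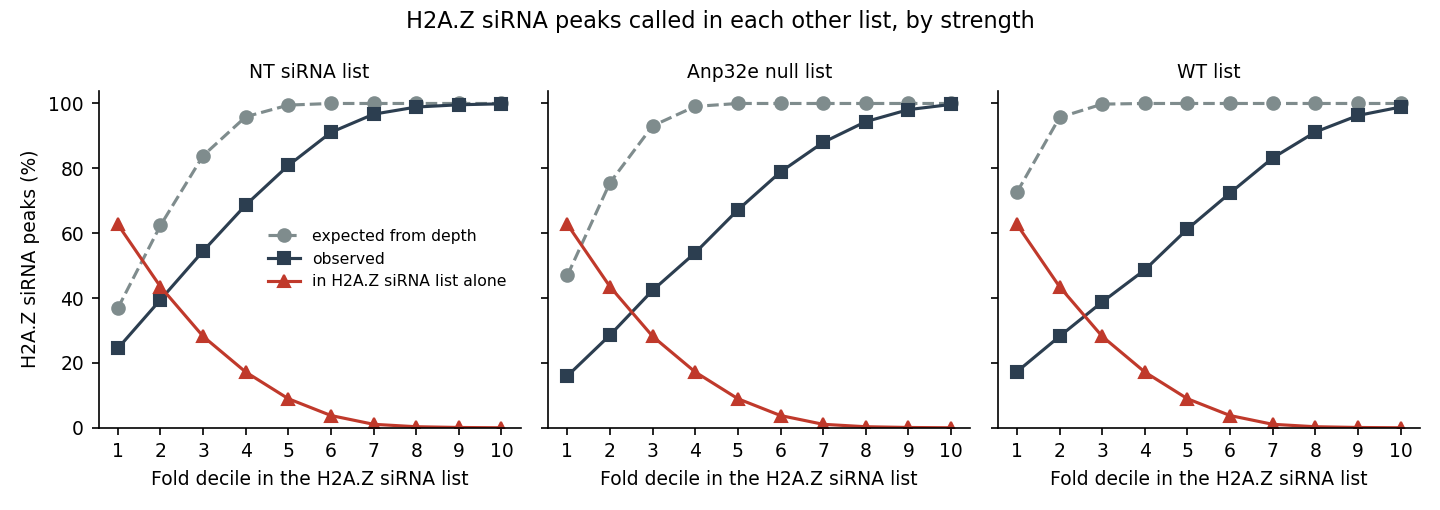
Percentage of H2A.Z siRNA peaks, by decile of fold in their list, expected to be called at the depth of the NT siRNA, Anp32e null and WT lists (grey circles, background scaling), observed in each list (dark squares), and found in the H2A.Z siRNA list alone (red triangles, the same in each panel). With this scaling observed calls lie below expected calls, and the red line falls from 62.7% in decile 1 to 1.09% in decile 7.

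With background scaling, a subset had a computed probability of a call of 0.99 or more at the depth of each other list. The mark rests on the sites' own fragment counts in the H2A.Z siRNA list, which also entered the calls. It allows for no variation between libraries, so it describes strength and is not a test. It held 1720 of the 17599 sites, or 9.77% (9.34 to 10.2%), whereas 64.2% of all H2A.Z siRNA peaks met this mark. The subset had a median fold of 4.94 and a median summit of 123 fragments. With ratios from shared sites it shrank to 513 sites, and with the stricter thresholds to 546. The 5 sites that stood highest above what NT siRNA depth required were those near Trarg1, in Armh3, in Igf2bp3, in Anapc1 and in Gm36642. Near Trarg1, 69.5 fragments were expected at NT siRNA depth and 13 were needed, and the nearest NT siRNA peak was 3976 bp away.

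The sequence under the summits differed from that of the other peaks at AP-1 and TEAD motifs, among others. In the 201 bp windows, 29.0% of the sites held TGANTCA (28.4 to 29.7%, autosomes 23.8 to 37.5%). Other H2A.Z siRNA peaks, weighted to the same fold deciles, held it in 23.0%. Over all H2A.Z siRNA peaks, 31.9% held it. The share in the sites was above that of the weighted peaks on each of the 19 autosomes, by 2.37 to 11.8 percentage points. The form with C or G in the middle, the AP-1 consensus, was found in 24.1% of the sites against 18.6%.

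The AP-1 share rose with strength. It was 15.9% in the lowest decile of fold, where the other peaks had 16.1%, and reached 29.5%, 37.2%, 45.0% and 48.5% in the second to the fifth decile, where the other peaks had 23.7%, 26.8%, 31.4% and 33.0%. In the seventh decile 75 of 116 sites held the motif, or 64.7% (55.6 to 72.8%), against 34.7%. From the second to the seventh decile, the share was higher in the sites than in the other peaks of the list. The intervals cover counting error only and hold no variation between libraries, so they do not test this difference. Among the 1720 sites callable at each depth, 842 held the motif, or 49.0% (46.6 to 51.3%), compared with 34.8% of the other peaks that met the same mark. With ratios from shared sites, the 513 sites left held it in 48.5%, against 34.6%. Neither comparison was weighted to the same fold deciles. The motif lay a median of 32 bp from the summit, and 39.1% of sites with a motif had it within 25 bp, close to the 34 bp and 36.7% of the other peaks. The windows shown above for Armh3 and Igf2bp3 are examples.

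Peaks called in 1 of the other lists alone were set against their own lists in the same way. In the lowest quartile by fold, which held 12985 of the 17599 sites, 23.1% of the H2A.Z siRNA sites held the AP-1 motif (22.3 to 23.8%) against 22.2% of other peaks. In the second quartile, 44.7% of the H2A.Z siRNA sites held the AP-1 motif (43.1 to 46.2%) against 31.4% of other peaks in that quartile. The corresponding shares were 12.8% and 30.7% for NT siRNA alone, 33.8% and 31.4% for untransfected null alone, and 28.4% and 28.7% for WT alone. In the third quartile they were 53.6% and 35.0% for H2A.Z siRNA alone, 23.7% and 31.4% for NT siRNA alone, 31.5% and 33.8% for null alone, and 33.7% and 32.6% for WT alone. NT siRNA alone had the lowest share in each of these quartiles, over 2317 sites in the first, 555 in the second and 59 in the third. In the third, its interval (14.7 to 36.0%) included the share of the other peaks of its list. The sites called in both siRNA lists held the motif in 25.2% (24.4 to 26.0%).

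**Figure D3:**
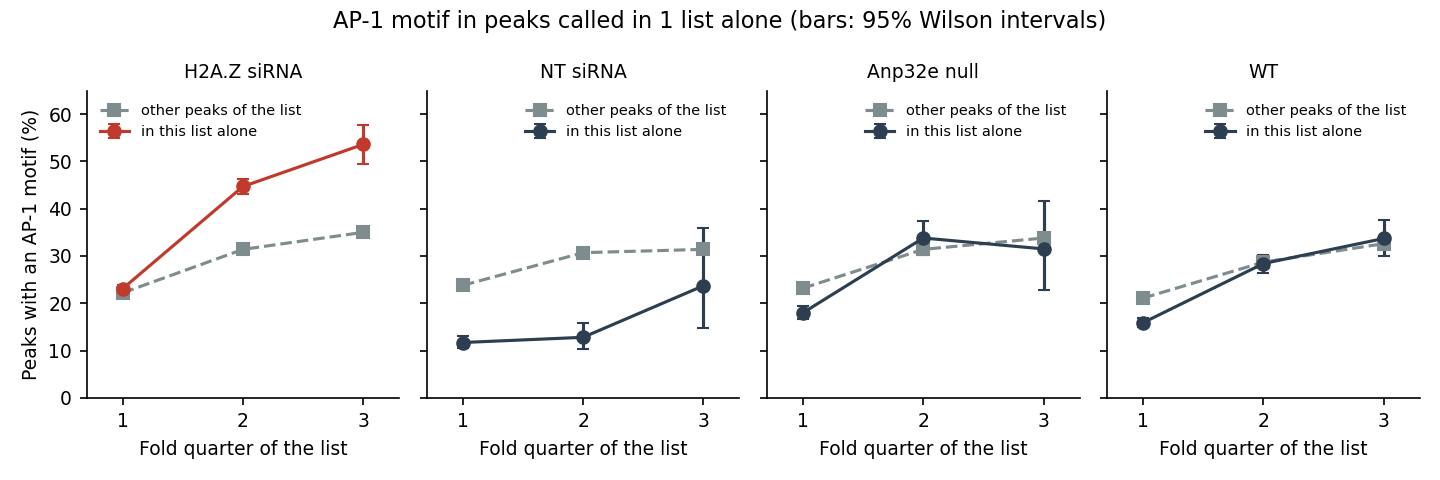
Percentage of peaks with an AP-1 motif in the 201 bp window, by quartile of fold within each list (1 is the lowest; the fourth, with 2 to 50 single-list peaks per list, is left out), for peaks called in that list alone (circles, bars are 95% Wilson intervals) and for the other peaks of the list (grey squares). The H2A.Z siRNA sites reach 44.7% in the second quartile and 53.6% in the third, above the 31.4% and 35.0% of the other peaks of that list.

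TEAD motifs (GGAATG) went the other way. They were found in 14.2% of the sites (13.7 to 14.7%), against 19.5% of other peaks of the same fold deciles, and the share was the lower in each of the 7 lowest deciles and on each of the 19 autosomes. NFI motifs (TTGGCA), bound by the nuclear factor I family, were also fewer on each autosome, at 12.2% against 15.2%. Motifs of factors that mark CpG-rich promoters were fewer: SP1 (GGGCGG) in 4.79% against 6.88%, ETS (CCGGAAG) in 0.852% against 1.26% and NRF1 (GCGCANGCG) in 0.176% against 0.382%. CTCF (CNAGNGGGC), the factor at domain boundaries, was found in 3.5% against 4.52%. Sites of 1 other list alone held these motifs in low shares too, without weighting. SP1 was in 2.93% for NT siRNA alone, 3.47% for null alone and 3.12% for WT alone. CTCF was in 3.07%, 2.72% and 2.48%, in the same order. The E-box (CANNTG), which contains the next 2 motifs, was found in 71.4% against 68.3%. The TWIST-type E-box (CANATG) was found in 45.6% against 41.2%, and the ZEB-type E-box (CAGGTG) in 13.4% against 11.7%, and neither was higher on every autosome. RUNX (TGTGGT), IRF, p53, SOX, FOX and NF-kB motifs differed by less than 0.2 points. All motifs were searched on both strands, and a match is a stretch of letters, not a bound factor.

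**Figure D4:**
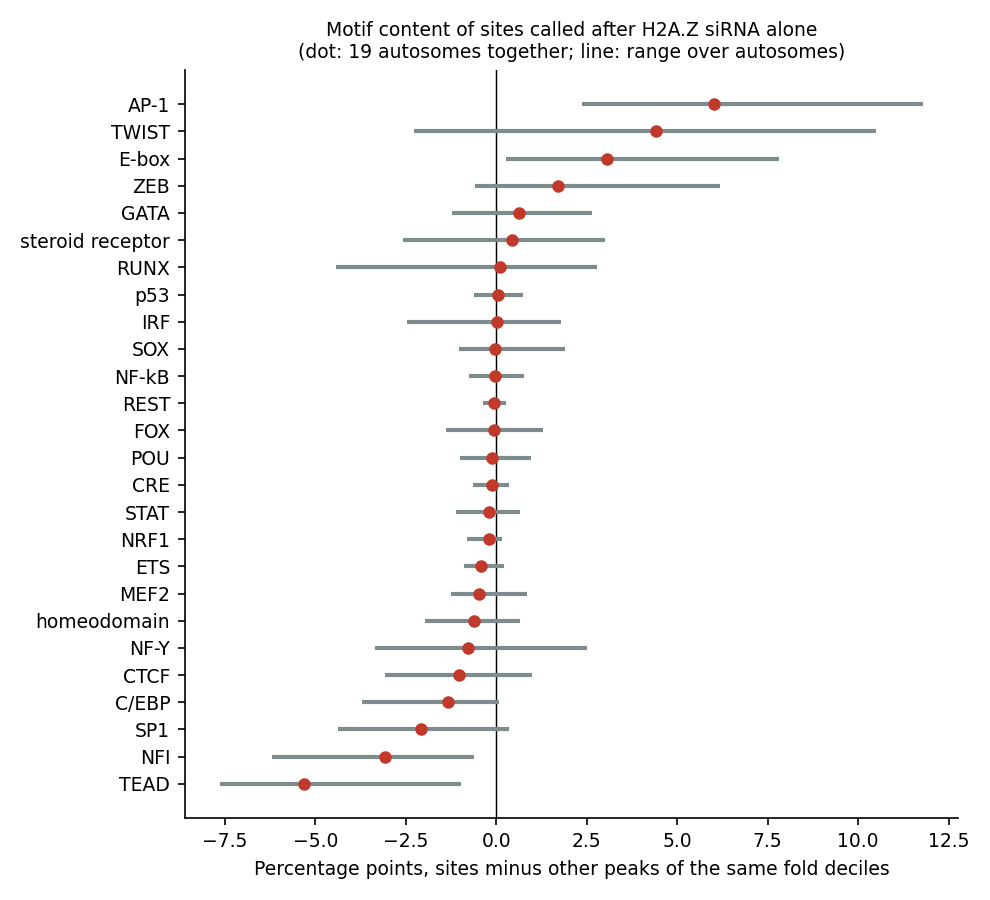
Difference in the percentage of 201 bp windows with each of 26 motifs between the sites and the other H2A.Z siRNA peaks weighted to the same fold deciles, in percentage points (dots, 19 autosomes together; lines, lowest to highest autosome). AP-1 has the highest value (6.03 points) and TEAD the lowest (−5.3 points), and both lines stay on 1 side of 0.

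GC content was similar. The median GC content of the windows was 48.8%, with medians of 46.8 to 50.2% over autosomes, against 49.3% for the other peaks. CpG dinucleotides stood at 0.208 of the number that base content gives, and at 0.201, 0.22 and 0.24 in the sites of NT siRNA, null and WT alone. In all other H2A.Z siRNA peaks the value was 0.38. In the lowest 5 fold deciles, which hold most of the sites, the gap was smaller, at 0.22 against 0.275 in the first, 0.2 against 0.269 in the third and 0.192 against 0.282 in the fifth, and in the seventh, with 116 sites, it was 0.181 against 0.364. Windows in which 50% or more of the bases were soft-masked as repeats in the reference made up 10.4% of the sites (9.92 to 10.8%), against 4.72% of other peaks of the same deciles, on each of the 19 autosomes. Of the AP-1 matches in the sites, 14.0% lay in masked bases, when 17.3% of all bases did. How reads that map to several repeat copies bear on these sites was not tested.

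By position, the sites were fewer at promoters than the other peaks of their list. Peaks within 1 kb of any annotated TSS were 14.1% of the sites (13.6 to 14.6%, autosomes 9.6 to 21.3%), compared with 24.1% of the other H2A.Z siRNA peaks and 18% of those in the same deciles. The difference, −3.94 points, was in the same direction on every autosome. It was not particular to these sites: promoter shares were 9.0% for NT siRNA alone, 9.76% for null alone and 10.4% for WT alone. In the lowest fold quartile, the H2A.Z siRNA sites had 15.9% against 17.6% of other peaks. Against their own lists, NT siRNA alone had 10.2% and 18.5%, null alone 9.99% and 18.3%, and WT alone 11.3% and 18.6%. The promoter share in the sites was 19.4% in the lowest decile, 12.7% in the second and 9.94% in the third, and lay between 5.51% and 9.8% in the fourth to the seventh. In the other peaks it was 20.6%, 17.0% and 15.2%, and then between 15.7% and 23.1%. Exons elsewhere in genes held 6.51% of summits (6.15 to 6.88%) against 5.2%, introns 49.2% (48.4 to 49.9%) against 44.5%, and the remaining 30.2% lay between genes.

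**Figure D5:**
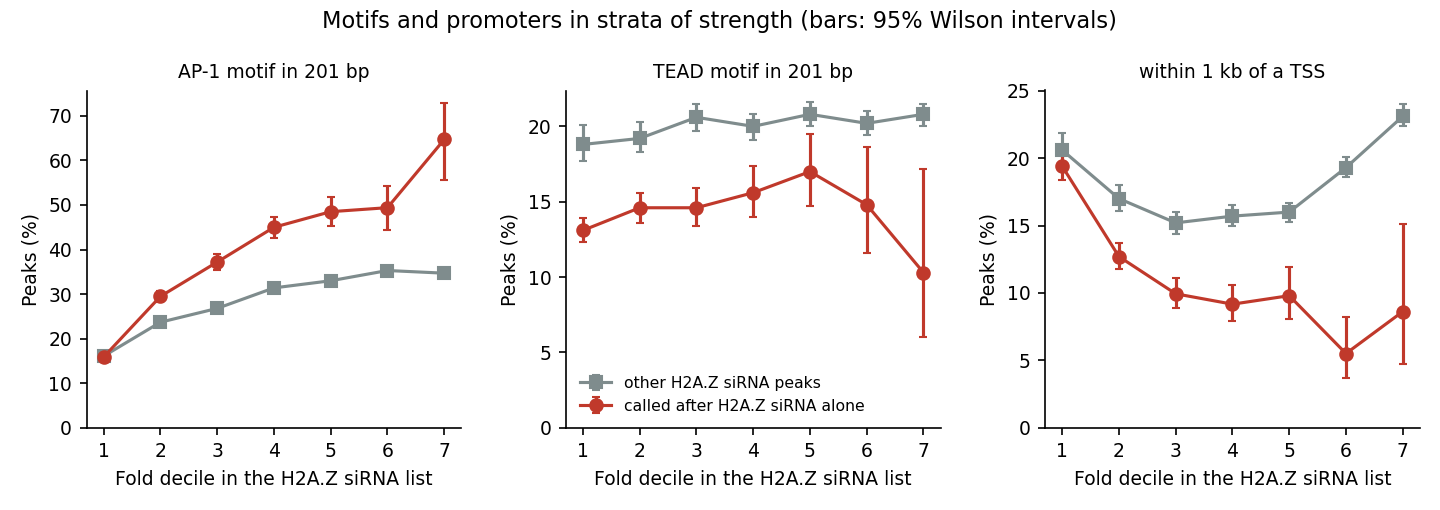
Percentage of peaks with an AP-1 motif (left), with a TEAD motif (middle) and within 1 kb of a TSS (right) by decile of fold in the H2A.Z siRNA list, for sites called after H2A.Z siRNA alone (red circles) and the other H2A.Z siRNA peaks (grey squares), with 95% Wilson intervals; deciles 8 to 10 hold 50 sites and are left out. The red line leaves the grey one upward for AP-1 from decile 2 on, and lies below it for TEAD and for promoters.

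At protein-coding promoters, 906 sites lay within 1 kb of a TSS of 836 genes, or 4.04% of 20698 genes. For 239 of these genes no other list had a peak at the TSS. The strongest was the site near Gm17482 (11.96-fold). It was followed by chr3:59219398-59219745, 683 bp from the TSS of P2ry12, an ADP receptor of platelets and microglia (7.7-fold, 144 fragments). The site at chr1:134111079-134111525, with its summit 44 bp from the TSS of Chit1, a chitinase of macrophages, reached 7.16-fold with 163 fragments and had an AP-1 motif 5 bp from the summit. The site at chr6:34921782-34922582 at Stra8, which is needed for entry into meiosis, reached 6.58-fold, and chr1:75277188-75277687 at Resp18, a gene of endocrine cells, 6.38-fold. Of these windows only that of Chit1 held the AP-1 motif.

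Among 38 gene lists, 24 had at least 1 gene with such a site at its TSS. The shares are read against 4.04% of all protein-coding genes, with no test. Near or below it stood solute carrier genes (18 of 358), cell cycle genes (2 of 44), potassium channel genes (4 of 92) and neural factors (2 of 65). So did interferon response genes (1 of 36), TGF-beta genes (1 of 35) and Wnt genes (1 of 51). Most of the lists named next stood above it. Hox genes, which set position along the body axis, had 5 of 39: Hoxb5 (3.47-fold), Hoxb7 (3.42-fold), Hoxc8 (2.82-fold), Hoxa4 (62 fragments) and Hoxd11 (1.54-fold). At the first 3 of them no other list had a TSS peak. Of 21 pluripotency factors 4 had a site, among them Pou5f1 (2.37-fold, 82 fragments) and Dppa3 (2.66-fold, 49 fragments). Of 18 adipogenic regulators 3 did, Ppargc1a, a coactivator of mitochondrial genes (4.19-fold, 156 fragments), Prdm16 (3.64-fold) and Pparg, the nuclear receptor that drives fat cell formation (3.61-fold). Of 35 germ line genes 3 did, Stra8, Zp1 and Piwil4, and each had no TSS peak in another list. Mesoderm and endoderm factors had 6 of 63, led by Runx3 (5.37-fold). Of cell type markers, 1 of 4 haematopoietic and 1 of 4 muscle genes had a site. They were Spi1, a myeloid factor (2.13-fold, 39 fragments, percentile 6.2), and Acta1, skeletal muscle actin (1.74-fold, 46 fragments, percentile 1.1). None of 14 fibroblast, 4 epithelial, 4 endothelial and 4 neural markers had one. Hippo pathway genes had 3 of 21, with Lats2 (2.39-fold) and Tead1 (2.2-fold). Collagen genes had 4 of 42, led by Col15a1 (4.21-fold), and matrix genes 4 of 38, with Mmp9 (2.38-fold), Col5a1 (2.31-fold) and Sparc (1.72-fold). Col5a1 and Col6a2 were counted in both of these lists. The median fold of the whole H2A.Z siRNA list was 5.41. Of the genes named here, Stra8 stood above it, at percentile 58.5, and Runx3 close to it, at percentile 49.7, and the others stood below.

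No site lay at the TSS of 58 cytosolic ribosomal protein genes, 67 replication-dependent histone genes, 31 genes of the complexes that deposit and remove H2A.Z, 25 p53 targets, 7 CDK inhibitors or 20 contractile myofibroblast genes. None had one either among 40 forkhead genes, 49 keratin genes, 56 clustered protocadherin genes or 14 fibroblast markers. At a share of 4.04%, a list of 20 or 30 genes would hold about 1 such gene, and the longest of these lists only a few. A count of 0 is therefore not read as a lack of sites in any of these lists. In the NT siRNA list, 59 of the 67 histone genes and every gene of the ribosomal, H2A.Z complex, p53, CDK inhibitor and contractile lists had a TSS peak. Other lists without a site had fewer, with 33 of 40 forkhead, 20 of 56 clustered protocadherin and 13 of 49 keratin genes. KRAB-type zinc finger genes had 4 of 385 and olfactory receptor genes 4 of 1126. Any H2A.Z siRNA peak at a TSS was found for 337 of the KRAB-type and 16 of the olfactory receptor genes. Over all 20698 protein-coding genes it was 14228. The count for contractile genes depended on the annotation: with every transcript of a protein-coding gene in place of its protein-coding transcripts, 6 of them had a site, and 1593 genes did in all.

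No site lay at the TSS of H2afz and H2afv, which encode H2A.Z, or of Anp32a, Anp32b and Anp32e. The bodies of these 5 genes held 2 sites among 12 peaks (16.7%, with 18.1% over all protein-coding genes). A site stood in an intron of Anp32e at chr3:95942619-95943082, 464 bp wide, with 154 fragments at its summit and a fold of 8.24, percentile 68.3 of the list. At NT siRNA depth 33.5 fragments were expected there and 11 needed, and the nearest peak of another list was 5164 bp away. The study reports that Anp32e coding sequence is deleted in the null cells. Where this site lies relative to that deletion was not examined. An intron of Anp32a held a second one, at chr9:62353771-62354144 (6.43-fold, 120 fragments). This pair was chosen after their values were seen.

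In gene bodies, 10928 of the 17599 sites lay within a protein-coding gene. Counting genes of every type, 67.8% of the sites had their summit in a gene, as did 63.3% of all H2A.Z siRNA peaks. Sites were 18.1% of the H2A.Z siRNA peaks summed over the bodies of all protein-coding genes, where a peak in overlapping genes counts in each. The share was 26.7% for matrix genes (88 of 330 peaks), 27.3% for contractile genes (57 of 209), 20.3% for collagen genes (73 of 359), 12% for KRAB-type zinc finger genes and 3.39% for ribosomal protein genes. Lists of other kinds stood as high, with 27.3% for germ line genes (18 of 66), 26.1% for the complexes that deposit and remove H2A.Z (24 of 92) and 25.5% for p53 targets (14 of 55). Part of the matrix count lay in 2 genes: Fn1, which encodes fibronectin, held 13 sites among 19 peaks, and Col5a1, a collagen V chain, 17 among 35. Cald1 (caldesmon) and Mrtfa, the coactivator of serum response factor, held 13 each, among 38 and 37 peaks. The shares were not tested, and accessibility in the bodies of highly transcribed genes was not measured apart from peaks.

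Part of the weak sites followed one another along genes. Counting sites with no site of another kind between them, 61.5% stood alone, 23.2% in pairs, 12.1% in runs of 3 or 4, and 563 (3.2%) in 98 runs of 5 or more. Sites in the long runs were weaker, with a median fold of 2.26 against 2.65 for lone sites, and wider, with a median of 446 bp against 356 bp. They lay in genes in 90.6% against 64.6%, and held the AP-1 motif in 18.3% against 32.2%. The longest run held 11 sites over 105.4 kb at chr5:34397652-34503008, across Fam193a and Tnip2. The next held 10 over 33.8 kb across Rtn4, a reticulon of the endoplasmic reticulum, where 9 of 10 peaks in the gene body were such sites, with folds of 2.06 to 3.64. Slc41a3, a magnesium transporter, also had 9 of 10, Fads2, a fatty acid desaturase, 7 of 8, and Dnmt1, the maintenance DNA methyltransferase, 7 of 9. These genes were chosen after their values were seen. The widest sites were 2470 bp in Dpp3, 2434 bp at 24.1 kb from the nearest coding TSS, that of Col5a1, and 2425 bp in Terf2, with folds of 2.71, 2.23 and 3.51.

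The rule itself keeps the sites from touching peaks of other lists, so their distances to those peaks are a description. The nearest peak of another list was a median of 3739 bp away (interquartile range 1442 to 7107 bp), and 114 sites (0.648%) were within 200 bp. To the nearest peak of the H2A.Z siRNA list itself, the median gap was 2578 bp for the sites and 4071 bp for the other peaks. Those 114 had a median fold of 2.14 and an AP-1 motif in 17.5%, while the 6902 sites more than 5 kb away had 2.76 and 30.3%. At the edge of the rule, the 22 sites within 20 bp of another list's peak had a median fold of 2.13 and were 378 bp wide at the median. The 24 H2A.Z siRNA peaks that overlapped another list by 20 bp or less had medians of 2.28 and 388 bp. The share of H2A.Z siRNA peaks that were such sites ran from 14.4% on chromosomes 3 and 13 to 20.8% on chromosome 17. Beyond the autosomes, the same rule kept 327 of 2575 H2A.Z siRNA peaks on X and 2 of 18 on Y.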

How the data were processed

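Per the study's methods, Bowtie2 alignment to mm10 was followed by duplicate removal with Picard, and the authors ran MACS2 on paired fragments. Mitochondrial and blacklisted peaks were set aside in that study's own later steps. Browser tracks and nucleosome profiles of the study used merged replicates, and each group has 1 deposited peak list, but whether peaks were also called on merged libraries is not given in the sources used here. The 4 deposited lists hold, per peak, a fold (summit fragment pileup over local background, 1 added to both), −log10 p and q values, a score that was not used and the summit's offset. The deposited WT list held 84126 peaks, null 82640, NT siRNA 89272 and H2A.Z siRNA 108409, of which 81848, 80433, 87116 and 105816 were autosomal.

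Whole fragment counts were recovered from each fold and −log10 p under the Poisson model of MACS2. All came out within 0.05 of a whole number. The most frequent local background of a list served as its depth. Depth per library was not used here. Binomial thinning gave the probability of a call at a shallower depth. On 20000 simulated peaks, 100% of pileups were returned exactly and drawn calls were 100.6% of expected. The draws followed the same model, so they check the arithmetic and not whether the model holds for these lists.

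Annotation was GENCODE M21 on GRCm38. A promoter site overlapped 1 kb on either side of a TSS. A protein-coding TSS was the start of a protein-coding transcript of a protein-coding gene, a definition settled after gene counts under a wider one had been seen. Consensus letters of 26 motifs were searched in GRCm38. Other peaks were weighted to the sites' fold deciles. Named sites were the 10 of highest fold, the 5 highest at a protein-coding TSS, the 3 widest, the 5 highest above the NT siRNA requirement, and up to 5 genes per list with a site at a TSS, of which a part is printed. 1 of the 10 sites of highest fold is not reported here by position or sequence. Sites, lists and motifs were chosen with earlier results of these data known. With 1 list per group no significance test was made. Alternatives covered thresholds, list length, depth, merging, overlap, promoter and window size. Python 3.11.15, NumPy 2.4.6, SciPy 1.17.1, pandas 2.3.3, samtools 1.23.1, bedtools 2.31.1 and matplotlib 3.10.9 were used.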

Additional observations from a re-analysis of the deposited data

How the results depend on the processing

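No paired analysis was possible because the values come from 1 peak list per group, and for the same reason no replicate could be left out in turn. Merging across 200 bp and asking only that the summit lie in no other peak gave 17485 and 18989 sites, within 1.5 times the count, and left the other values they were run on within their spread. Keeping single-peak sites changed nothing by construction, since every site held 1 peak. With X and Y, run on the count alone, there were 17928 sites. The number of sites was 5469 when each list gave its 80433 strongest peaks, 1546 with the top 20000 peaks and 10207 after thinning to NT siRNA depth. In the same order of the first 2 settings, the median width was 410 and 844 bp, the share expected at NT siRNA depth 92.3% and 100%, the promoter share 9.22% and 11.8% (−6.73 and −26.4 points against other peaks of the same deciles), the AP-1 share 44.2% and 57.0% (13.5 and 24.4 points), and the median GC content 47.3% in both, with a median percentile of 19 for the top 20000. At a −log10 q of 5 or more in all lists, the width was 405 bp, the expected share 71.5%, the promoter share 13.1% and the AP-1 share 33.3%. With that q asked of the H2A.Z siRNA list alone, the last 3 were 70.2%, 13.1% and 34.2%, with an AP-1 difference of 8.91 points. Under a reciprocal overlap of 50%, the median percentile was 17.9, the width 431 bp, the expected share 65.2% and the promoter share 15.6%. Promoters of 500 bp on either side held 9.35% and those of protein-coding transcripts 5.15%. In windows of 50 bp on either side, 20.1% held AP-1. With depth ratios from shared sites, the expected shares were 65.3% (NT siRNA), 36.2% (null) and 20% (WT), 8018 peaks were expected in no other list and 513 sites were callable at each depth. With thresholds at the 5th percentile, these were 24.6%, 42.4%, 66.9%, 7679 and 546. With every transcript of protein-coding genes, an alternative chosen after seeing the data, 1593 genes and 6 contractile genes had a site at a TSS. The cause of these shifts was not tested beyond what each setting changes by construction. The promoter and AP-1 differences from peaks of the same deciles kept their sign under the alternatives run on them, while the order of the expected shares (NT siRNA lowest) turned with the ratios from shared sites (NT siRNA highest).

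The limits are that each group is 1 list, that H2A.Z siRNA and NT siRNA differ in depth and in number of libraries (2 against 1), which cannot be told apart from the siRNA, and that signal below the threshold of a shallower list was not measured.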
